A study of Mus musculus with 4 samples.

Results

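PPARγ and 7 genes of lipid uptake, transport and storage were followed in mouse bone marrow-derived macrophages (BMDMs): Pparg, Rxra, Cd36, Olr1, Fabp4, Fabp5, Plin2 and Angptl4. The genes were taken by gene symbol from the array's annotation, which gave 9 probes for these 8 genes among 30840 probes for 23212 named genes. Every gene had 1 probe except Rxra, which had 2. BMDMs were grown from C57BL/6J bone marrow (mice 10 weeks old) in L929 cell supernatant for 6 days and were then polarized for 2 days. Wild-type cells received IFNγ at 20 ng/ml with LPS at 100 ng/ml (M1), IL-4 at 50 ng/ml (M2), or the same IL-4 with the mTOR kinase inhibitor Torin1 at 250 nM (Torin1). Cells whose genotype is labelled p18 (2400001E08Rik) -/- received IL-4 alone (Lamtor1-deficient M2), p18 being an older name of Lamtor1, a lysosomal anchor of the Ragulator complex. The study's methods describe the deletion as conditional, with floxed Lamtor1 and Cre under the LysM promoter of myeloid cells, whereas the label reads as a whole-animal knockout. They describe littermate controls with floxed Lamtor1 and also purchased wild-type mice. Figure legends of the study define its wild-type BMDMs as grown from mice with floxed Lamtor1 and no Cre. The control arrays are labelled wild type, so the control genotype behind every ratio was not settled. No vehicle is named for the M2 array.

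Each condition was measured on 1 array, so none of the differences below has a replicate check and none was tested. All of them were taken against the same M2 array, and an error on that array would enter all 3 comparisons. Levels are given as normalized signal, which is the processed probe signal divided by the 75th percentile of the probes of that array. A gene was counted as higher or lower when its normalized signal differed from that of M2 by 2-fold or more. Among the probes printed in 6 or more copies on each array and well above background, 250 to 271 of 399, the ratio of 2 single spots had a technical SD of 0.0997 (M1), 0.088 (Lamtor1-deficient) and 0.093 (Torin1) on the log2 scale. Repeated probes not well above background had a wider spread, with a median SD between spots of 0.181 to 0.387 on one array, so this SD does not apply to such readings. The SD covers spotting and hybridization within an array and leaves out the spread between cultures or animals.

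PPARγ is a nuclear receptor that binds DNA as a heterodimer with a retinoid X receptor and is activated by fatty acids and their oxidized derivatives. In macrophages it is induced by IL-4 and is known to drive genes for taking up, carrying and storing lipid. Cd36 and Olr1 (LOX-1) encode receptors for oxidized lipoprotein. Fabp4 and Fabp5 encode cytosolic fatty acid chaperones. Plin2 encodes the coat protein of macrophage lipid droplets, and Angptl4 encodes a secreted inhibitor of lipoprotein lipase.

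The 8 genes did not all move the same way. Pparg and Olr1 were lowest in M1, with M2 next and Lamtor1-deficient M2 and Torin1 above M2. Torin1 read highest for both genes, but its log2 ratio to Lamtor1-deficient M2 was only 0.08 for Pparg and 0.15 for Olr1. With scaling by array medians, the log2 ratios of Pparg to M2 were 0.50 in Lamtor1-deficient M2 and 0.26 in Torin1. Those of Olr1 were 0.19 and 0.03, so the order of these arrays depended on the scaling. Cd36 and Angptl4 shared another order, from M1 up to M2 with both other arrays between. Pparg, Cd36, Angptl4 and Olr1 were lower in M1 than in M2, while Rxra and Fabp5 were higher. In Lamtor1-deficient M2, Fabp4 was 5.40-fold and Fabp5 2.42-fold higher, Angptl4 was 3.28-fold lower, and the other 5 genes, Pparg and Cd36 among them, stayed within 2-fold. In Torin1-treated M2, Plin2 was 3.22-fold, Fabp4 2.99-fold, Rxra 2.58-fold and Fabp5 2.53-fold higher, and Angptl4 was 2.02-fold lower. The Rxra calls in M1 and Torin1 held on its brighter probe alone. Under some processing settings, Fabp5 in M1 and Torin1 and Angptl4 in Torin1 fell under 2-fold.

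The labels were checked first. The Lamtor1 probe, listed as 2400001E08Rik, read 1.55 in Lamtor1-deficient M2 against 66.3 in M2, which is 2.34% of the M2 level. Of 6 genes of alternative activation, 5 were lower in M1, 5 in Lamtor1-deficient M2 and 4 in Torin1 than in M2, and 1 was higher in M1. Of 4 measured genes of classical activation, 4 were higher in M1. In Lamtor1-deficient M2, 2 of these were higher and 2 lower. In Torin1, 2 were higher and 1 lower, and 1 of the Torin1 calls had a bound under 2-fold. All 7 macrophage markers were well above background on every array. Their summed level was 690.4 in M2, 404 in M1, 468 in Lamtor1-deficient M2 and 543 in Torin1. Most of it came from the brightest Csf1r probe. On the brightest probes, Emr1, Cd14 and Fcgr1 were lower in Lamtor1-deficient M2 (log2 ratios -2.57, -1.86 and -4.96), Emr1 and Fcgr1 also in Torin1. Csf1r and Itgam stayed within 2-fold on both arrays, but their other probes were lower. For Csf1r these gave -1.86 and -1.84 in Lamtor1-deficient M2 and -1.85 and -2.14 in Torin1. For Itgam they gave -2.34 and -1.10, and -2.81 and -1.76. Of 7 neutrophil markers on the array, Mpo, Camp, Ltf, Ngp and Ctsg were lower than in M2 in all 3 comparisons. Elane, without a value in Torin1, went the other way, at 52.1 in M1, 12.4 in M2 and 18.6 in Lamtor1-deficient M2, and Prtn3 was not well above background in M1 or M2. Without Elane the summed level was 10.9 in M2, 0.621 in M1, 0.823 in Lamtor1-deficient M2 and 0.477 in Torin1. Every ratio below is taken against the M2 array, and the part of these markers in the results was not tested. Between 50.9% and 55.4% of the 55681 probes were well above background per array, and no spot was saturated.

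**Figure D1:**
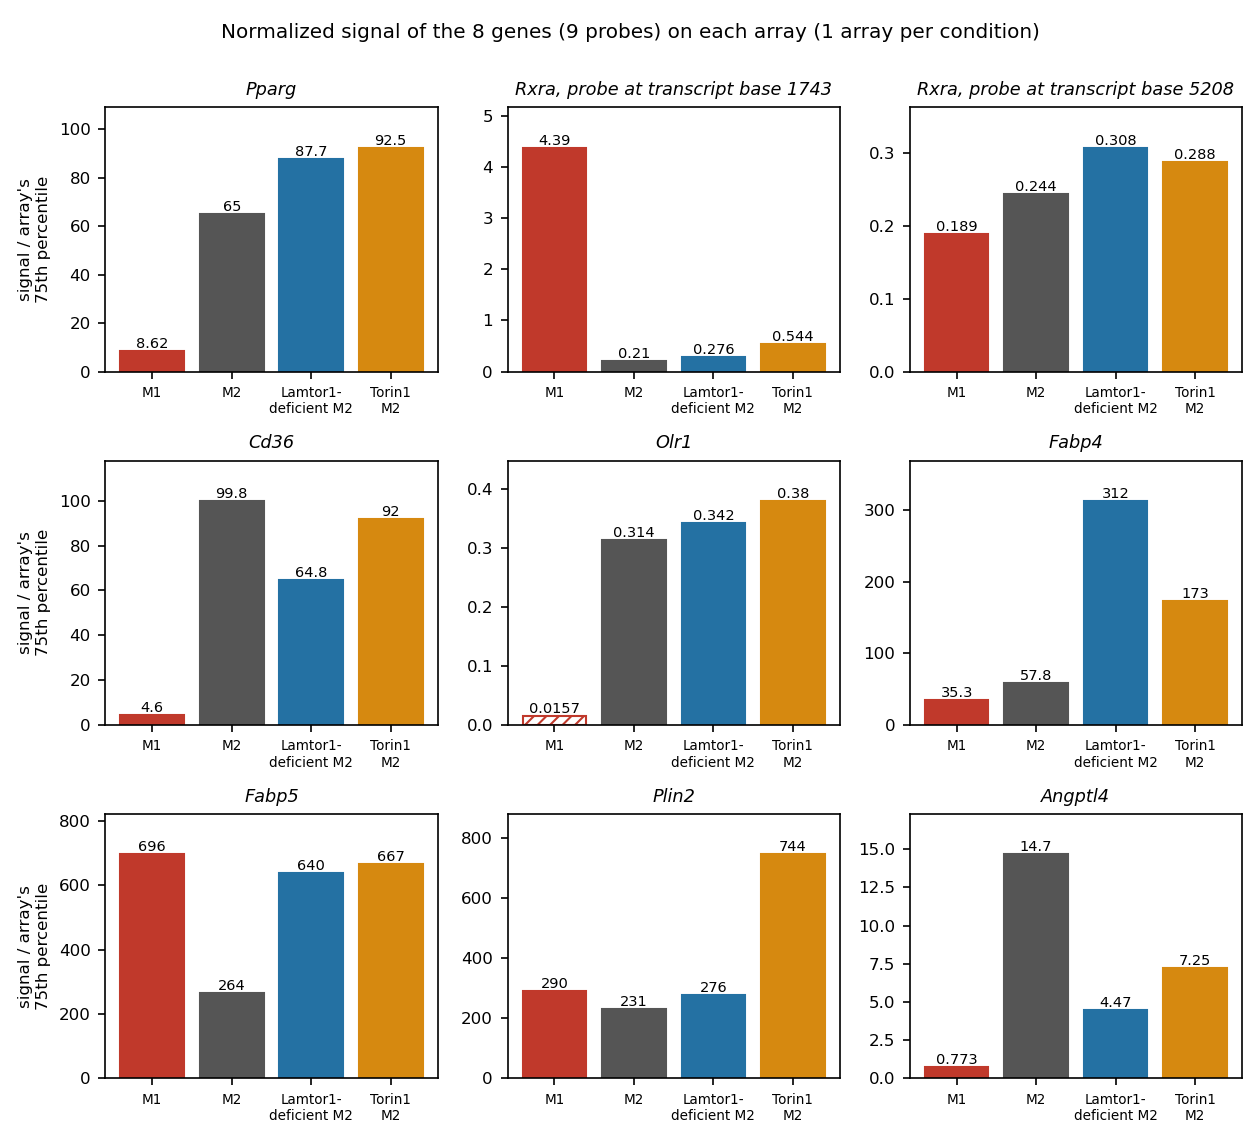
Bars show the normalized signal (signal divided by the array's 75th percentile, linear axes from 0) of each of the 9 probes on the 4 arrays, 1 array per condition; the hatched bar was not well above background. Pparg, Cd36, Olr1 and Angptl4 were lowest in M1, Fabp4 was highest in Lamtor1-deficient M2, Plin2 was highest in Torin1, and the Rxra probes differed in M1.

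Of the receptor pair, Pparg read 8.62 in M1, 65.0 in M2, 87.7 in Lamtor1-deficient M2 and 92.5 in Torin1. The M1 level was 13.3% of that in M2, a difference of 7.54-fold, and the Lamtor1-deficient and Torin1 arrays stood above M2, at 135% and 142% of it. The log2 ratios to M2 were -2.91, 0.43 and 0.51. The probe (chr6:115440213-115440272, mm9, plus strand) was printed 10 times per array, which gave the one direct view of spot error among these genes. On the M1 array 6 of the 10 spots were used, with signals from 2387 to 2543, and on the M2 array all 10 lay between 36465 and 40205. The coefficients of variation between spots were 2.66%, 2.86%, 4.75% and 6.77% in M1, M2, Lamtor1-deficient M2 and Torin1. The log2 ratios of 0.43 and 0.51 were larger than the technical SD but below 2-fold, so Pparg was not past the threshold without Lamtor1 or with Torin1.

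**Figure D2:**
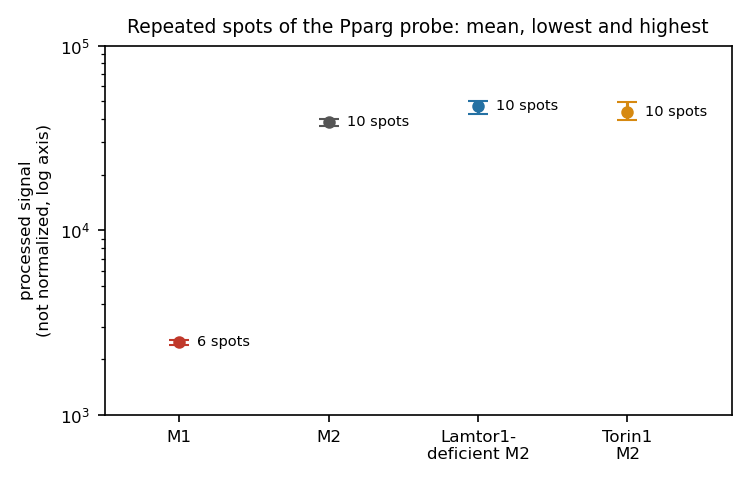
Points show the mean processed signal (not normalized, log axis) of the repeated Pparg spots on each array and bars run from the lowest to the highest spot; 6 spots were used in M1 and 10 on each other array. The M1 spots, at 2387 to 2543, lay below every spot of the IL-4-treated arrays.

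Rxra encodes the partner receptor RXRα, and its 2 probes gave different answers for M1. Both are shown because the call depends on which one is read. They are the first 30 bases of 60-base probes on chromosome 2 of mm9, plus strand, and both carry the same RefSeq transcript in the annotation, starting at its bases 1743 and 5208.
Rxra probe at chr2:27615316-27615375: gtccttatgggcccaaaagatgcatcacca
Rxra probe at chr2:27618781-27618839: taattacaggttaacaatgccccatctgtg
The upstream probe was the brighter over the 4 arrays and read 4.39 in M1, 0.21 in M2, 0.276 in Lamtor1-deficient M2 and 0.544 in Torin1. On this probe M1 was 20.8-fold higher than M2. The downstream probe read 0.189, 0.244, 0.308 and 0.288 in the same order, so M1 was the lowest array there, with a log2 ratio of -0.37. For Torin1 the log2 ratios were 1.37 and 0.24. For Lamtor1-deficient M2 both probes stayed close to M2, at 0.39 and 0.33. All 8 readings were well above background. Where Rxra is counted as higher in M1 and Torin1, the count rests on the upstream probe alone. The upstream probe was the brighter only through its M1 and Torin1 readings and was the dimmer in M2 and Lamtor1-deficient M2. Its choice thus depended on the readings that it is used to count.

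Among the uptake receptors, Cd36 (chr5:17288600-17288659, mm9, minus strand) read 4.60 in M1, 99.8 in M2, 64.8 in Lamtor1-deficient M2 and 92.0 in Torin1. M2 was thus the highest array and M1 the lowest, 21.7-fold below it. Lamtor1-deficient M2 reached 64.9% of the M2 level (log2 ratio -0.62), and Torin1 reached 92.2% (-0.12, close to the technical SD). Olr1 (chr6:129435316-129435375, mm9, minus strand) was a dim gene, at 0.314 in M2, 0.342 in Lamtor1-deficient M2 and 0.38 in Torin1. In M1 it was not well above background, and the signal bound places it at least 4.79-fold lower than in M2. That bound holds for the background handling used here, and with normexp background correction the M1 log2 ratio was -1.06. Its log2 ratios of 0.12 in Lamtor1-deficient M2 and 0.27 in Torin1 were both under 2-fold, so neither receptor was past the threshold in the IL-4-treated comparisons.

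The fatty acid chaperones had the highest ratios of the 8 genes in Lamtor1-deficient M2. Fabp4 (chr3:10204452-10204511, mm9, minus strand) read 35.3 in M1, 57.8 in M2, 312 in Lamtor1-deficient M2 and 173 in Torin1. Its Lamtor1-deficient level was thus above its Torin1 level, with a log2 ratio of Torin1 to Lamtor1-deficient M2 of -0.85. The log2 ratios to M2 were -0.71, 2.43 and 1.58, and only 518 of 23193 genes had a higher ratio in Lamtor1-deficient M2. With array medians in place of the 75th percentile, the M1 ratio of Fabp4 became -1.53, past 2-fold. Fabp4 is also an adipocyte gene, so the defining adipocyte markers were read beside it. Lep, Cfd and Plin1 were not well above background on any array. Adipoq, which encodes adiponectin, was 0.639 in M2, 6.44 in Lamtor1-deficient M2 and 0.192 in Torin1, so it was lower with Torin1, where Fabp4 was higher. Retn, which encodes resistin, went the other way and was at least 65.8-fold lower in Lamtor1-deficient M2 on its brightest probe, while its second probe was not well above background in M2. The summed level of the 8 adipocyte markers ran from 43.9 to 64.2 over the arrays, and most of it was Adipor2, at 43.5 to 57.6. Of 7 fibroblast markers, Pdgfra, Dcn and Thy1 were higher in Lamtor1-deficient M2 (log2 ratios 1.45, 1.91 and 1.99) and none was lower, with a summed level of 56.7 against 43.5 in M2 and 15.5 in Torin1. Of 5 measured lymphocyte markers, Cd3g and Cd8a were counted as higher in Lamtor1-deficient M2, and Cd79a was lower (-1.84). Both higher genes were dim, and 1 of these calls had a bound under 2-fold. The summed level of the lymphocyte markers was 13.2 against 12.9 in M2. The part of these markers in the Fabp4 result was not tested. In bulk RNA, fewer cells of a type and less RNA per cell cannot be told apart.

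Fabp5 (chr3:10016185-10016244, mm9, plus strand) had its lowest reading in M2, at 264, and read 696 in M1, 640.0 in Lamtor1-deficient M2 and 667 in Torin1. The log2 ratios to M2 were 1.40, 1.28 and 1.34, so the 3 other arrays lay close to each other and above M2. With array medians or quantile normalization the M1 ratio was 0.58 or 0.68, and with quantile normalization the Torin1 ratio was 0.93, each under 2-fold. The probe has a near copy on the array. A second probe, annotated to chromosome 8 with no gene name, matched it at 54 of 58 aligned bases, and its first stretch is shown against that of Fabp5 with the bases that differ in capitals.
Fabp5 probe, positions 1 to 30: gTcaAaTGcaacaaacagcttcacttcttt
near copy, the aligned 30 bases: gAcaTaAAcaacaaacagcttcacttcttt
All 4 differing bases fall within these stretches, and the rest of the alignment is identical. The near copy gave log2 ratios of 1.41 in M1, 1.83 in Lamtor1-deficient M2 and 1.66 in Torin1, also with M2 as its lowest array. Signal from Fabp5 and from such a copy cannot be told apart with these probes. No other member's probe shared a run of 20 bases in the same orientation with another probe on the array.

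Plin2 (chr4:86302847-86302906, mm9, minus strand) separated Torin1 from the other conditions. Its normalized signal was 290 in M1, 231 in M2, 276 in Lamtor1-deficient M2 and 744 in Torin1. The log2 ratio to M2 was 1.69 in Torin1 and 0.26 in Lamtor1-deficient M2, and the log2 ratio of Torin1 to Lamtor1-deficient M2 was 1.43. In M1 the sign depended on the scaling, from 0.33 with the 75th percentile to -0.10 with quantile normalization and -0.50 with array medians, all within 2-fold. Angptl4 (chr17:33911880-33911939, mm9, minus strand) was the one member 2-fold or more below M2 in all 3 comparisons, although its Torin1 ratio was under 2-fold in 2 of the settings tried. Cd36 was below M2 in all 3 as well, but past 2-fold in M1 alone. Angptl4 read 0.773 in M1, 14.7 in M2, 4.47 in Lamtor1-deficient M2 and 7.25 in Torin1. The differences from M2 were 19.0-fold, 3.28-fold and 2.02-fold. The Torin1 difference sat at the threshold, and its log2 ratio of -1.02 became -0.98 with quantile normalization and -0.93 with the 75th percentile of probes measured on all arrays.

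**Figure D3:**
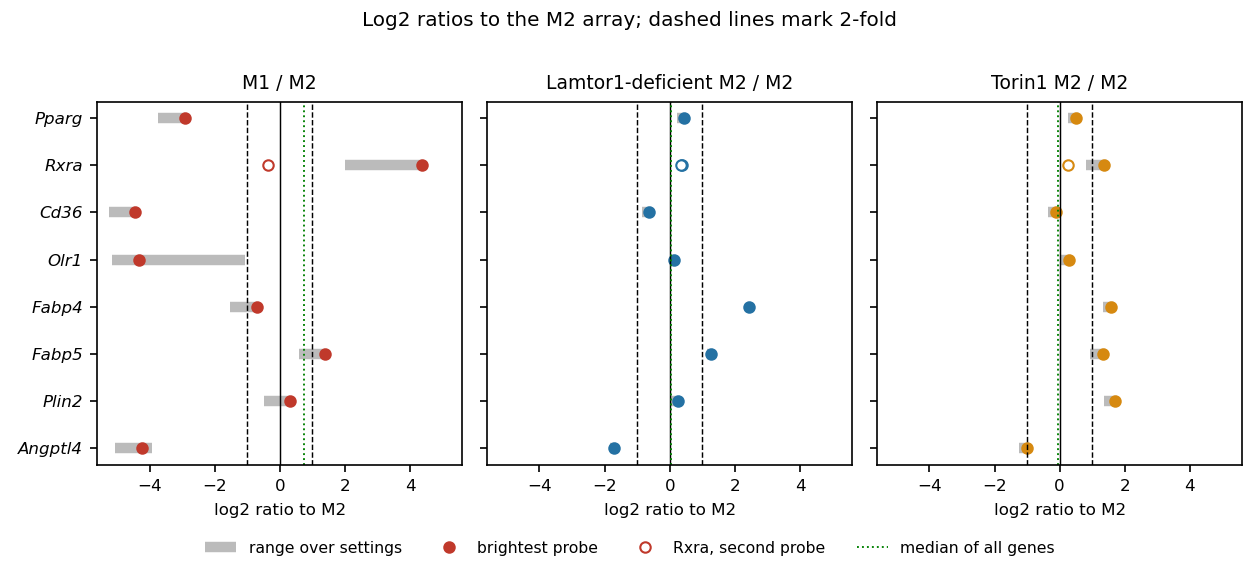
Filled points show the log2 ratio of each gene to the M2 array, grey bars its range over all processing settings tried, the open point the second Rxra probe, the dotted line the median of all genes and dashed lines 2-fold. In M1 the Rxra and Olr1 bars were the widest, at 2.01 to 4.39 and -5.14 to -1.06, and in Lamtor1-deficient M2 every bar stayed on its side of the 2-fold lines.

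Against the array as a whole, the M1 comparison had 2 members higher and 4 lower, where 30.5% of all genes were higher and 19.3% lower. All 8 members were well above background on at least 1 array of each pair, and of all genes that were so in M1 or M2, 56.1% differed in either direction. The counts of M1 over M2 depended on the scaling. The median of all genes was 0.74 with the 75th percentile and -0.08 with array medians, and 61.3% of the calls were higher in the first case, 32.8% in the second and 43.8% with quantile normalization. Pparg, Cd36, Angptl4 and Olr1 were lower than in M2 under each of these scalings. In Lamtor1-deficient M2, 2 members were higher and 1 was lower, where 8.88% of all genes were higher and 8.68% lower, and 20.9% of the genes well above background in the pair differed in either direction. In Torin1, 4 members were higher and 1 was lower, where 14.3% of all genes were higher and 11.8% lower, and 30.2% of the genes well above background in the pair differed. The member counts depended on the processing as well. In Torin1, 3 were higher and 0 lower with quantile normalization, and 3 were higher with the median over a gene's probes. In M1, 1 was higher with array medians or quantile normalization. Of the Torin1 calls over all genes, 54.8% were higher with the 75th percentile, 38.8% with array medians, 45.2% after normexp correction, 46.3% with quantile normalization and 60.2% with the 75th percentile of probes well above background on all arrays. With 8 genes and 1 array per condition, these shares describe the members and do not set them apart from other genes.

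The genes around PPARγ in the pathway, 113 in all from 7 lists, were read in the same way. Counts below are over the list members well above background on at least 1 array of the pair. Where a gene was so on 1 array alone, it was counted by its measured ratio, and its fold is given as a lower bound. Among all genes filtered in this way, 28.3% were higher and 27.8% lower in M1, 10.5% and 10.4% in Lamtor1-deficient M2, and 15.0% and 15.2% in Torin1.

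Of the receptors and coregulators, 19 of 20 were measured. In Lamtor1-deficient M2, 0 were higher and 2 lower, with a median log2 ratio of -0.08. Crebbp, a histone acetyltransferase and coactivator, had the lowest ratio, at -1.51. In Torin1, 2 were higher and 2 lower, with Crebbp at -1.42, Cebpb at 1.34 and Ppard at 1.19. Ppard encodes PPARδ, and read 11.9 in M1, 2.88 in M2, 5.73 in Lamtor1-deficient M2 and 6.55 in Torin1, so M2 was its lowest array as it was for Fabp5. In M1, 4 were higher, led by Cebpb at 2.92, and 4 lower, led by Ppargc1b at -2.64. Stat6, the transcription factor downstream of the IL-4 receptor, had log2 ratios of 0.35, 0.06 and 0.08 on its brightest probe, but 1.38, 0.01 and 0.87 on a second and 0.67, -0.12 and -0.51 on another.

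The next list holds enzymes that make candidate lipid ligands. Of 10 measured genes, 1 was higher and 4 lower in Lamtor1-deficient M2, and 1 was higher and 5 lower in Torin1. Pla2g7, which encodes a secreted phospholipase that hydrolyses oxidized phospholipids, read 93.0 in M2, 5.30 in Lamtor1-deficient M2 and 152 in Torin1, with log2 ratios of -4.13 and 0.70. Its second probe gave -4.34 and -0.17. Alox5ap, needed by 5-lipoxygenase, was lower in both, at -1.90 and -3.62. Ptgs1 and Ptgs2 encode the constitutive and inducible cyclooxygenases. Ptgs1 was lower in every comparison, at -8.07 in M1, -1.34 in Lamtor1-deficient M2 and -5.00 in Torin1. Ptgs2 was 8.23 in M1, 0.43 in Lamtor1-deficient M2 and 2.70 in Torin1. Alox15 was not well above background on any array. In M1, 5 of 11 measured genes were higher and 3 lower.

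Other known PPARγ targets outside the 8 genes went both ways. In Lamtor1-deficient M2, 3 of 23 measured genes were higher and 5 lower, with a median log2 ratio of -0.01. The highest was Mgll, which encodes monoacylglycerol lipase, with a normalized signal of 0.158 in M1, 2.60 in M2, 286 in Lamtor1-deficient M2 and 66.1 in Torin1. Adipoq was second, with a log2 ratio of 3.33. The lowest was Lpl, the lipoprotein lipase that Angptl4 inhibits, which read 345 in M2, 19.6 in Lamtor1-deficient M2, 7.82 in Torin1 and 3.41 in M1. Lpl and Angptl4 were therefore both highest in M2 and lower on each of the other arrays. The study itself read LPL, beside ABCA1, as a target of the liver X receptor (LXR). By PCR it reported LPL lower in IL-4-treated cells without Lamtor1 or with mTOR inhibited. Cpt1a, the carnitine palmitoyltransferase of mitochondrial fatty acid import, was lower in M1 (-3.35) and in Lamtor1-deficient M2 (-1.31) and was within 2-fold in Torin1 (-0.47). In Torin1, 6 of 25 measured genes were higher and 9 lower, with Mgll at 4.67, Pdk4 at 2.20, Klf4 at -4.07 and Lpl at -5.46. In M1, 6 of 24 were higher and 10 lower.

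The wider uptake list holds fatty acid transport proteins, acyl-CoA synthetases, and lipoprotein and scavenger receptors. In Lamtor1-deficient M2, 4 of 25 measured genes were higher and 6 lower, with a median log2 ratio of 0.14. The scavenger receptors Stab1 (-5.78), Stab2 (-3.06) and Msr1 (-2.03) were lower there, and Colec12 was higher (2.61). In Torin1, Stab1, Stab2 and Msr1 were lower as well, at -2.59, -4.33 and -1.73, and Colec12 was at -0.07. Several scavenger receptors thus differed from M2 by more than Cd36 did. Slc27a2, a fatty acid transporter, was at least 6.52-fold higher in Lamtor1-deficient M2 and not well above background elsewhere. Slc27a6 was higher in both comparisons, at 1.91 and 4.71. Acsl3, an acyl-CoA synthetase, had opposite signs, at 2.22 in Lamtor1-deficient M2 and -2.13 in Torin1. In Torin1, 2 of 24 measured genes were higher and 9 lower, and in M1, 3 of 24 were higher and 10 lower, with Marco the highest at 5.01.

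Of the 8 other fatty acid binding proteins, 5 were measured in the M1 and Torin1 comparisons and 3 in that of Lamtor1-deficient M2. Fabp3, the heart type, read 37.5 in M1, 0.656 in M2, 8.88 in Lamtor1-deficient M2 and 1.46 in Torin1, again with M2 the lowest array. Fabp7, the brain type, was lower in Lamtor1-deficient M2 (-3.61) and higher in Torin1 (3.27). Fabp2 was higher in Torin1 (1.06) and lower in Lamtor1-deficient M2 (-1.45). Fabp9 and Fabp12 were not well above background in M2, so they could only be counted as higher, with bounds of at least 1.52-fold and 1.54-fold in Torin1 and of at least 4.03-fold and 5.46-fold in M1.

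Lipid droplet genes were the list with the highest median in Lamtor1-deficient M2. Of 15 measured genes, 7 were higher and 1 lower, with a median log2 ratio of 1.00 against 0.08 for all genes well above background in the pair. Beside Mgll, the higher genes were Dgat2 and Soat1, which esterify diacylglycerol and cholesterol, at 3.59 and 1.89, the lipase Pnpla2 and its activator Abhd5, at 1.08 and 1.33, the droplet protein gene Hilpda (2310016C08Rik) at 1.04 (0.92 on its second probe), and Pnpla3, at least 1.57-fold. Lipe, the hormone-sensitive lipase, was the lower one, at -1.07. Hilpda, Pnpla2, Lipe and Pnpla3 (measured log2 ratio 1.02) thus sat near the threshold, and counts of single lists were not recomputed under other scalings. In Torin1, 5 were higher and 3 lower. Plin5, a droplet coat protein, was at least 8.98-fold higher in Torin1 and not well above background on the other arrays. Hilpda (3.76) and Pnpla2 (2.28) were also higher with Torin1, while Dgat2 was lower (-1.64). Plin3, a coat protein on small droplets, was just within 2-fold in both, at 0.94 and 0.88. In M1, 4 of 15 were higher and 3 lower, and Hilpda reached 6.45.

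Of the 5 other angiopoietin-like genes, 3 were measured. Angptl2 was at least 50.1-fold lower in M1 and lower in Torin1 (-1.32), with -0.73 in Lamtor1-deficient M2. No other member of the family passed 2-fold among those measured.

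**Figure D4:**
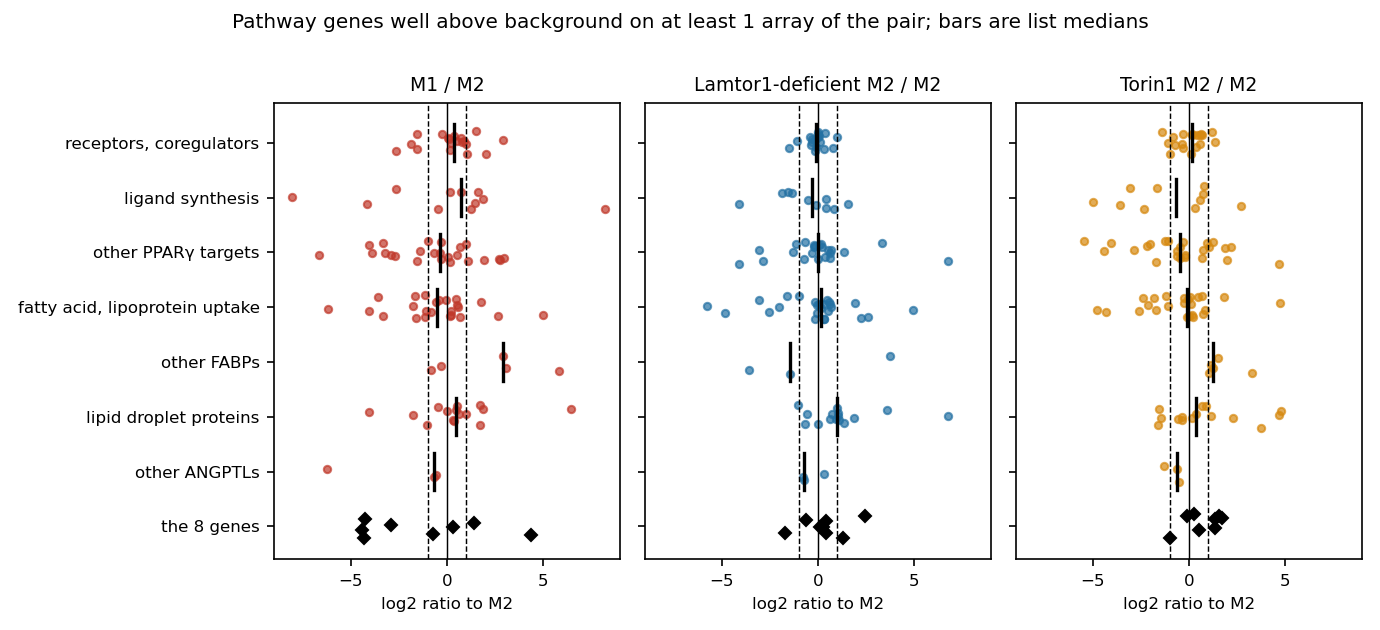
Circles show the log2 ratio to M2 of each pathway gene well above background on at least 1 array of the pair, by list, with list medians as bars; diamonds are the 8 genes and dashed lines mark 2-fold. The median of the lipid droplet list was 1.00 in Lamtor1-deficient M2, and the lists other than the FABPs and ANGPTLs held genes on both sides of 0 in every comparison.

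The genes closest to each member were sought by the Euclidean distance of centred log2 levels over the 4 arrays, among 12817 other genes well above background on all 4. Olr1 was left out, since its M1 reading was not well above background. With 4 points per profile many genes lie close. The nearest genes were Rbm19 for Pparg (distance 0.103), 4921517L17Rik for Rxra (0.103), Alg8 for Cd36 (0.144), Dusp2 for Fabp4 (0.197), E230032D23Rik for Fabp5 (0.095), Mapk15 for Plin2 (0.118) and Tacc1 for Angptl4 (0.164). Next in order were Hspbp1 and Bri3bp for Pparg, B230120H23Rik and Arhgap27 for Rxra, and Dcaf4 and Kti12 for Cd36. For Fabp4 the next were Rnf157 and Plxna2, for Fabp5 Raph1 and the related gene Fabp5l2, for Plin2 Slc30a1 and E130309D02Rik, and for Angptl4 Daglb and Cxcl14. No member was among the 3 nearest genes of another. Cd36 was the closest member to Angptl4, at rank 97 and a distance of 1.11.

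PPARγ with RXRα is known to bind a direct repeat of the letters AGGTCA with 1 base between the copies. RefSeq promoters (GRCm38.p6, from 250 bases before to 50 after a start site) were at hand for 5 of the 8 genes, in 8 windows. That repeat, with any base N as the spacer and on either strand, was in none of them and in 0.0396% of all 32851 promoters. A single AGGTCA on either strand, which the repeat would also hold, was in 6 of the 8 windows, and in 16.3% of all promoters. The stretches around it are shown for the receptor and for both uptake receptors, with the match in capitals.
Pparg, 28 bases before a start, chr6:115361104-115361133, plus strand: agccgccgcctcAGGTCAgagtcgccccgg
Pparg, 9 bases before another start, chr6:115362319-115362348, plus strand: ttttatataagggacgcgaggAGGTCAaga
Cd36, 228 bases before a start, chr5:17836107-17836136, minus strand: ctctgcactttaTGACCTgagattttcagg
Olr1, 175 bases before a start, chr6:129507323-129507352, minus strand: tttcttagtgaaAGGTCAtgaagcatgact
In the Cd36 stretch the letters lie on the opposite strand and appear as TGACCT. The STAT6-type palindrome, TTC and GAA with 4 bases between them, was in the Cd36 window, within the 50 bases after the start, and in 6.95% of all promoters. Plin2 and 1 of the Rxra windows held AGGTCA as well. A match of letters describes the window and is not a measured binding site.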

How the data were processed

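Total RNA from 4 BMDM cultures was hybridized to Agilent 1-colour 8x60K mouse arrays, 1 array per condition. The deposited scanner files hold spot intensities that the authors obtained with Agilent Feature Extraction (10.5.1.1 in the submitters' processing notes, 10.7.3.1 in the file headers), background-subtracted and not normalized between arrays. A deposited series table holds the same intensities, within 0.497%. As in the study's methods, signals under 1 were raised to 1 and each array was shifted to its 75th percentile (287, 595, 536 and 470.0 in M1, M2, Lamtor1-deficient M2 and Torin1). Between 170 and 226 outlier spots per array were left out, spots of a probe were averaged, and a gene was read by its brightest probe over the 4 arrays. Gene names are those of the array's annotation, of which 93.8% were found in the RefSeq table, and mm9 coordinates are the array's own. Exon and UTR positions of the probes were not determined. Signal bounds used the lowest signal well above background (15.7 to 21.6) and hold for this background handling alone. With 1 array per condition, no test was run, and precision is limited by having 4 arrays in all.

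The members and lists were chosen with earlier results of these data known. Named list genes were, per list and comparison, drawn from the 4 with the largest ratios past 2-fold and well above background, and genes that share a name or role with a member. Stat6, Plin3, Alox15, Pdk4, Msr1, Colec12, Acsl3, Lipe and Pnpla3 fell outside this rule and were picked with their values in view. The alternatives were array medians, quantile normalization and normexp with offset 50 (limma 3.58.1, R 4.3.3), another percentile base, background filters, a floor, outlier spots kept, other probe rules, the series table, and thresholds of 1.5-fold and 3-fold. The counting code was tested on simulated data, which checks the code alone and not the error between arrays. Some genes are not reported here by name, though they remain in the counts.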

Additional observations from a re-analysis of the deposited data

How the results depend on the processing

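Of 263 recomputed log2 ratios of the 8 genes, 224 moved by less than the technical SD of probes well above background (which is too small for the M1 reading of Olr1), 37 moved by more without a change of sign, and the M1 ratio of Plin2 reversed, to -0.4955 with array medians and -0.1004 with quantile normalization. Many of the 224 could not move by construction. The background filters keep or drop a ratio without changing it, and the probe rules can change only the ratios of Rxra. A floor changes only readings below it, and the series table holds the same intensities. The 224 is therefore no measure of robustness. Of 234 recomputed counts, 193 stayed within 1.5 times. With array medians, M1 had 1 of the 8 genes higher, 3601 genes higher and 7389 lower over all, and 18 pathway genes higher and 46 lower (28 and 30 with the 75th percentile). Quantile normalization gave 1 of the 8 genes higher in M1, 4335 genes higher over all, and 0 of the 8 lower in Torin1, and the percentile of probes measured on all arrays also gave 0 there. Normexp correction gave 1075 genes higher and 970 lower in Lamtor1-deficient M2, and 1389 and 1687 in Torin1. A floor at the lowest measured signal gave 4583 genes higher in M1 and 2009 in Torin1. Keeping genes well above background on at least 1 array of the pair left 4483 higher in M1. Keeping those so on both left 3328 higher in M1, 1091 higher and 1076 lower in Lamtor1-deficient M2, and 1671 higher in Torin1. At 1.5-fold, M1 had 12370 genes and 44 pathway genes higher. Lamtor1-deficient M2 then had 2 of the 8 genes lower, 3865 genes higher and 3479 lower, and 31 pathway genes higher, and Torin1 had 5840 genes higher, 4516 lower and 38 pathway genes higher. At 3-fold, M1 had 1 of the 8 genes and 4462 genes higher. Lamtor1-deficient M2 had 1 of the 8 higher, 1042 genes higher, 1057 lower, and 10 pathway genes higher and 12 lower. Torin1 had 1 of the 8 higher and 0 lower, 1451 genes higher, 1476 lower and 11 pathway genes higher. The unaltered counts over all genes were 7088 higher and 4472 lower in M1, 2059 and 2012 in Lamtor1-deficient M2, and 3307 and 2731 in Torin1. Unaltered pathway counts were 17 higher and 21 lower in Lamtor1-deficient M2 and 22 higher in Torin1. Beyond the threshold and scaling changes that define them, the causes were not tested.

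No paired analysis was possible because each group has 1 array and no test was run. The median over the probes of Rxra gave 0.81 in Torin1, under 2-fold. The M1 ratio of Olr1 ranged from -5.14 to -1.06, since its M1 signal was not well above background, and it had no value when genes had to be measured on both arrays. Without replicate arrays, differences near 2-fold, such as Angptl4 in Torin1, cannot be told apart from the spread between cultures, and dim genes are limited by the signal over background.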
